A study of Homo sapiens with 6 samples.

Results

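The genes described here encode the chaperones and disulfide folding enzymes of the endoplasmic reticulum (ER), and they were read out in NCI-H660 cells treated with pyrvinium pamoate (PP) or PBS. The set was chosen by gene symbol, from what the proteins do, with earlier results of these data known: ER lumenal and membrane chaperones, protein disulfide isomerases, ER oxidases, and the cyclophilin and FKBP prolyl isomerases of the ER. All 43 symbols were found among the 17177 genes of the table. NCI-H660 is an established cell line of neuroendocrine prostate cancer (NEPC), labelled WT in every sample, and the study used PP as a drug against the RNA-binding protein ELAVL3. RNA was collected on day 3 from 3 libraries treated with PP and 3 libraries treated with PBS, the control. The comparison asks which transcripts differ between these treatments in cells of this line. No concentration of PP was found in the sources used here, the libraries used here came from this line alone, and nothing beyond the wording "independent samples" says that the libraries came from separate cultures, so P values measure the spread between these libraries.

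Proteins that enter the secretory pathway fold in the lumen of the ER. BiP, the product of *HSPA5*, binds unfolded stretches in cycles set by J proteins and nucleotide exchange factors, while calnexin and calreticulin hold glycoproteins that carry a trimmed sugar, and protein disulfide isomerases form and reshuffle disulfide bonds with oxidising power from ERO1. When unfolded proteins build up, the sensors ATF6, IRE1 and PERK start the unfolded protein response, and ATF6 and XBP1 bind an element in the promoters of many chaperone genes, the ER stress response element (ERSE). Cells that secrete hormones, neuroendocrine cells among them, depend heavily on this machinery.

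Levels are given as FPKM, mapped fragments scaled by the length of the gene and the size of the library, so genes may be compared with each other per unit of length. The recovered counts came to between 29217468 and 32655273 per library. The cells carried markers of their label: 8 neuroendocrine markers were tested, and their summed level was 281.8 to 288.0 FPKM in PBS and 254.8 to 264.8 FPKM in PP, with 2 of them higher and 4 lower under PP. By the rule given below, 38.1% of all genes tested were higher and 34.4% lower. *CHGA*, which encodes the granule protein chromogranin A, was at 42.4 to 44.1 FPKM in PBS and 23.5 to 25.5 FPKM in PP. *SCG2* and *INSM1* went the other way, from 7.68 to 8.89 FPKM and 15.4 to 17.2 FPKM in PBS. In PP they were at 12.35 to 14.44 FPKM and 18.2 to 20.5 FPKM. A set of 3 luminal prostate markers summed to at most 1.40 FPKM in any library, and the leukocyte marker *PTPRC* did not exceed 0.0204 FPKM. Fibroblast markers summed to 4.09 to 4.49 FPKM in PBS and 4.49 to 4.91 FPKM in PP, of which *COL1A1* gave 3.20 to 3.45 and 4.05 to 4.29 FPKM and *COL1A2* gave 0.637 to 0.915 and 0.259 to 0.620 FPKM. Leukocyte markers summed to 2.78 to 3.57 and 2.17 to 3.09 FPKM. The part these shifts play in the folding genes was not tested, and in bulk RNA a smaller share of cells of a kind and less RNA per cell cannot be told apart.

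Some promoters of the set hold an element through which the unfolded protein response is known to act. The copies are shown because they are carried both by *HSPA5*, which rose strongly under PP, and by *CALR*, which fell. RefSeq promoters, from 250 bases before to 50 bases after a start on GRCh38.p14, were matched for 38 of the 43 genes (*DNAJC1*, *FKBP10*, *FKBP14*, *PDIA3* and *SELENOM* were not matched). An exact ERSE, CCAAT and CCACG with 9 free bases between them on either strand, was found in 7 of the 38, or 18.4%, against 25 of 27305 genes in the whole reference, or 0.0916% (27 of 35116 promoters, or 0.0769%). Each copy is printed 5′ to 3′ on the strand where the element reads CCAAT first, with 5 bases on each side and the fixed letters in capitals:
HSPA5, chr9:125241391-125241409, strand of the gene: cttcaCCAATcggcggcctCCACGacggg
HSP90B1, chr12:103930216-103930234, strand of the gene: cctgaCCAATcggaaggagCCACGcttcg
HSP90B1, chr12:103930321-103930339, opposite strand: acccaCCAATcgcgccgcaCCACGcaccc
CANX, chr5:179698778-179698796, strand of the gene: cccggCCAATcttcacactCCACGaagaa
CALR, chr19:12938384-12938402, opposite strand: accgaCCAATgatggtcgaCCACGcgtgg
PDIA6, chr2:10812853-10812871, strand of the gene: ccggaCCAATgagccgcagCCACGgcttg
ERO1B, chr1:236282183-236282201, opposite strand: ggcggCCAATgaggcgggaCCACGcgggc
CRELD2, chr22:49918554-49918572, opposite strand: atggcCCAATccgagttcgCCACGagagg

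The coordinates mark the 19 bases of each element. The copy of *HSPA5* lies 66 to 48 bases before the start, those of *CRELD2* and *PDIA6* begin 80 and 86 bases before it, and the others lie farther upstream, up to 243 bases before the start in *ERO1B*. The related element ERSE-II, ATTGG and CCACG with 1 free base between them, was found in *HYOU1*, where there are 2 copies, and in *SDF2L1*, and is held by 0.0696% of all genes and 0.0541% of all promoters. These copies are shown because *HYOU1* is among the genes that rose most while it lacks an exact ERSE:
HYOU1, chr11:119057274-119057284, opposite strand: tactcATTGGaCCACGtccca
HYOU1, chr11:119057380-119057390, opposite strand: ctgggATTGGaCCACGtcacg
SDF2L1, chr22:21642114-21642124, opposite strand: ttttgATTGGtCCACGcttcc

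The motif TGACGTGG, known as the unfolded protein response element, was found in *DNAJC10*, *HYOU1*, *TXNDC11* and *TXNDC5* and in 0.927% of all genes or 0.729% of all promoters. In *HYOU1* it overlaps the farther copy of ERSE-II, on the other strand. The composite motif of ATF4, TGATGNAA, was found in 0 of the 38 genes and in 4.46% of all genes or 3.62% of all promoters. With 1 changed letter allowed among the 10 fixed letters, the ERSE was also found in *CRELD1* (C18T), *DNAJC3* (A3T), *HYOU1* (A17G) and *SDF2L1* (A17T) and at more places of *HSP90B1*, with positions counted from 1 at the first base of CCAAT and the letter of the element written first. Copies with 1 changed letter were found in 5 of the 38 genes and in 1.81% of all genes or 1.48% of all promoters. A match says only that these letters are present in this window.

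Under PP, more of the folding genes rose than fell, with the highest log2 fold changes in *DNAJB9*, *HSPA5* and *HYOU1*, which encode BiP and helpers of BiP. Genes with a mean of at least 1 FPKM over the 6 libraries were tested with limma on log2(FPKM + 1), which kept 40 of the 43 folding genes and 11726 genes in all, and every log2 fold change below is PP minus PBS on that scale. Of the 40 genes, 25 rose (62.5%), 5 fell (12.5%) and 10 did not pass an adjusted p of 0.05. Among all genes tested, 38.1% were higher and 34.4% were lower by the same rule. The counts by role below are to be read beside these shares, and no difference between roles was tested. A stricter rule asked for an unadjusted P under 0.001 and, on the log2 scale, a rise of more than 1. It was met by 3 folding genes, *DNAJB9*, *HSPA5* and *HYOU1*, or 7.5% of the 40 against 2.24% of all genes tested. None met it downward, below -1, where 2.93% of all genes did. The median log2 fold change of the 40 genes was 0.22, with a range from -0.53 to 2.08, beside a median of 0.022 over all genes tested.

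**Figure D1:**
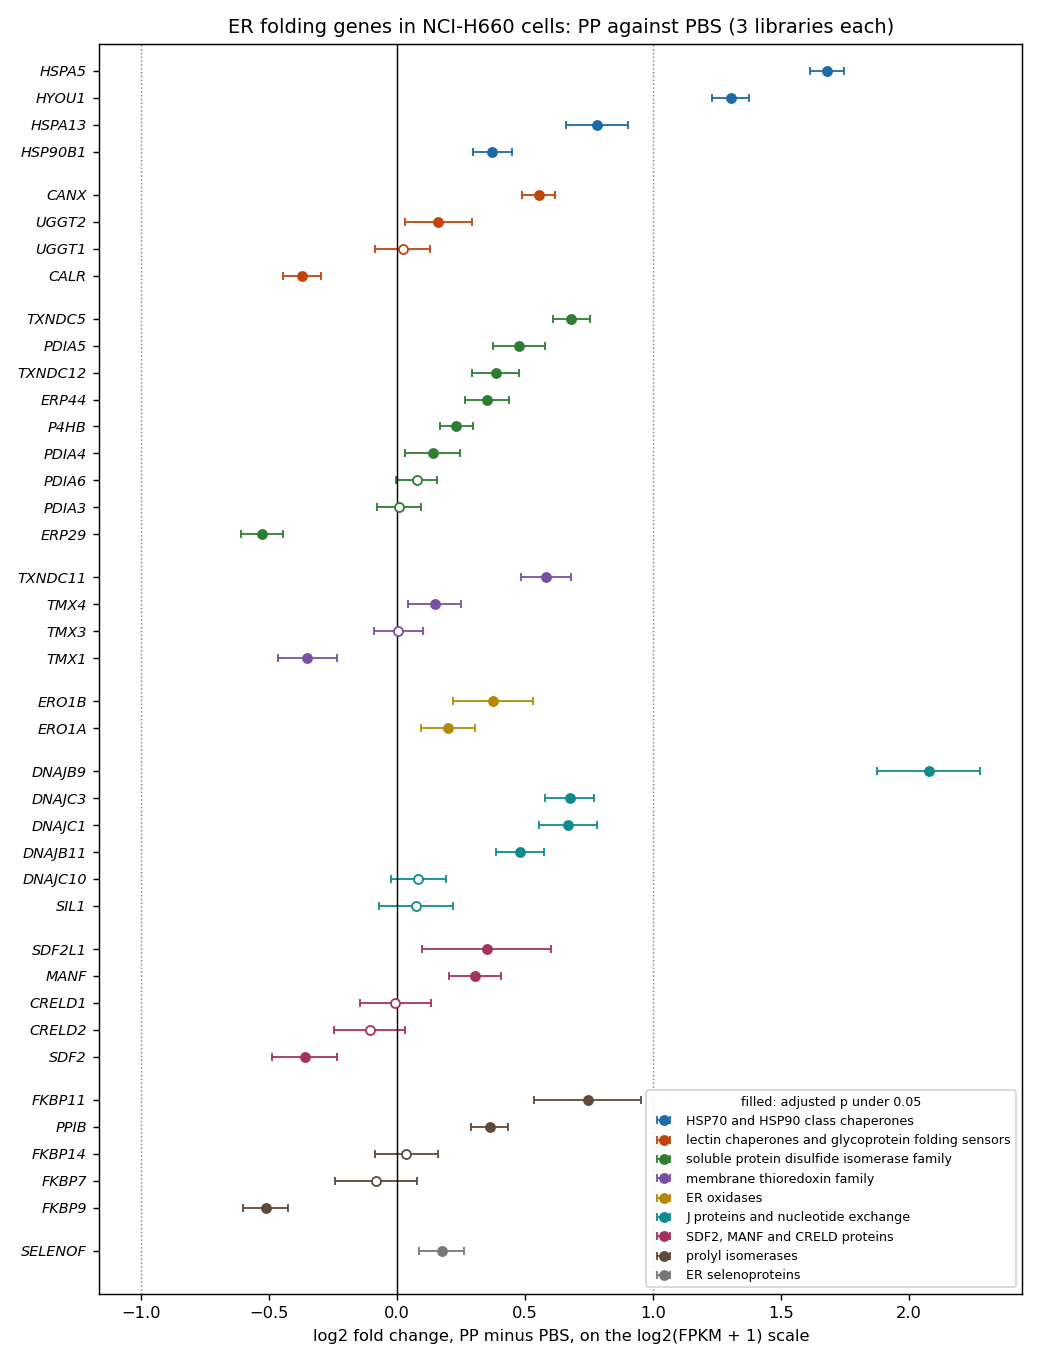
Log2 fold change of the 40 tested folding genes (PP minus PBS, horizontal axis, on the log2(FPKM + 1) scale), grouped by role, with bars for the 95% confidence interval and filled points for an adjusted p under 0.05. *DNAJB9* at 2.08, *HSPA5* at 1.68 and *HYOU1* at 1.30 lie past the dotted line at 1, and *ERP29*, *FKBP9*, *CALR*, *SDF2* and *TMX1* are the filled points below 0.

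All 4 chaperones of the HSP70 and HSP90 classes rose, with a median log2 fold change of 1.04. *HSPA5*, which encodes BiP, the central HSP70 of the ER, was at 114.5, 110.6 and 115.7 FPKM in the PBS libraries and at 365.8, 364.1 and 368.8 FPKM in the PP libraries. The 3 replicates of each group lay within a few FPKM of each other, and the PP mean was 3.22-fold the PBS mean (log2 fold change 1.68, SE 0.030, limma adjusted p = 8.121e-11). *HYOU1*, an HSP70 relative that serves BiP as a nucleotide exchange factor, rose from 68.7, 69.4 and 67.2 FPKM to 173.0, 172.1 and 165.9 FPKM. The groups were again far apart, at 2.49-fold (log2 fold change 1.30, SE 0.033, limma adjusted p = 3.994e-10). *HSPA13*, a microsomal HSP70 that lacks the usual peptide-binding domain, went from 13.6, 13.3 and 13.6 FPKM to 25.4, 21.9 and 24.5 FPKM, a log2 fold change of 0.78 (SE 0.055). *HSP90B1*, the HSP90 of the ER, was already among the most abundant folding genes, at 351.7, 329.3 and 331.1 FPKM in PBS, and reached 428.3, 439.7 and 442.3 FPKM in PP. Its groups did not overlap, but its log2 fold change of 0.37 (SE 0.034) was far smaller than that of *HSPA5*. The promoter of *HSP90B1* holds 2 exact copies of the ERSE, printed above.

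Among the J proteins and nucleotide exchange factors of BiP, 4 of 6 rose and none fell, with a median log2 fold change of 0.57. *DNAJB9*, a J protein that binds aggregation-prone clients and keeps the sensor IRE1 in check, had the highest log2 fold change of the whole set. It was at 5.39, 3.99 and 5.38 FPKM in PBS and at 24.1, 22.3 and 25.1 FPKM in PP, from 282 to 405 counts and from 1624 to 1984 counts per library. All PP libraries were thus far above all PBS libraries, and the means differed by 4.85-fold (log2 fold change 2.08, SE 0.091, limma adjusted p = 1.959e-08). *DNAJC3*, a co-chaperone also known as an inhibitor of PERK, rose from 11.4 ± 0.329 to 18.8 ± 0.237 FPKM (SD, n = 3) at a log2 fold change of 0.67. *DNAJC1*, a membrane-bound J protein near the translocon, moved by the same log2 fold change of 0.67, from 20.8 ± 0.544 to 33.7 ± 2.18 FPKM. *DNAJB11*, the abundant soluble J protein that hands clients to BiP, rose from 107.0 ± 3.34 to 149.9 ± 7.49 FPKM, a log2 fold change of 0.48. *DNAJC10*, a J protein with thioredoxin domains that reduces disulfides, was at 11.5 ± 0.195 and 12.3 ± 0.604 FPKM and did not pass the test (log2 fold change 0.0825, 95% interval -0.026 to 0.19). *SIL1*, the other exchange factor of BiP, was at 17.9 to 20.1 FPKM in PBS and 18.8 to 22.2 FPKM in PP, and its groups overlapped (log2 fold change 0.072, 95% interval -0.072 to 0.22).

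The lectin chaperones parted. *CANX*, which encodes the membrane lectin calnexin, rose from 274.0, 268.1 and 264.8 FPKM to 390.3, 392.6 and 402.4 FPKM, a log2 fold change of 0.55 (SE 0.029, limma adjusted p = 7.688e-08). *CALR*, which encodes its soluble counterpart calreticulin, fell from 434.4, 411.4 and 422.0 FPKM to 323.0, 336.9 and 319.5 FPKM, a log2 fold change of -0.37 (SE 0.033, limma adjusted p = 3.663e-06). Neither gene had overlapping groups. *CALR* was the most abundant folding gene in PBS and took place 4 in PP. It was the only gene with an exact ERSE among the 5 that fell, where 7 of the 38 matched genes of the set (18.4%) hold one. Of the enzymes that tag incompletely folded glycoproteins for another round of lectin binding, *UGGT2* rose slightly, from 6.36 ± 0.172 to 7.24 ± 0.520 FPKM (log2 fold change 0.16, limma adjusted p = 0.03005). That call was lost without PBS replicate 2, PBS replicate 3, PP replicate 1 or PP replicate 3, with adjusted p of 0.09315, 0.05151, 0.06439 and 0.1065. *UGGT1*, the main enzyme of this kind, was at 10.8 ± 0.267 and 11.0 ± 0.449 FPKM (log2 fold change 0.0215, 95% interval -0.086 to 0.13).

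**Figure D2:**
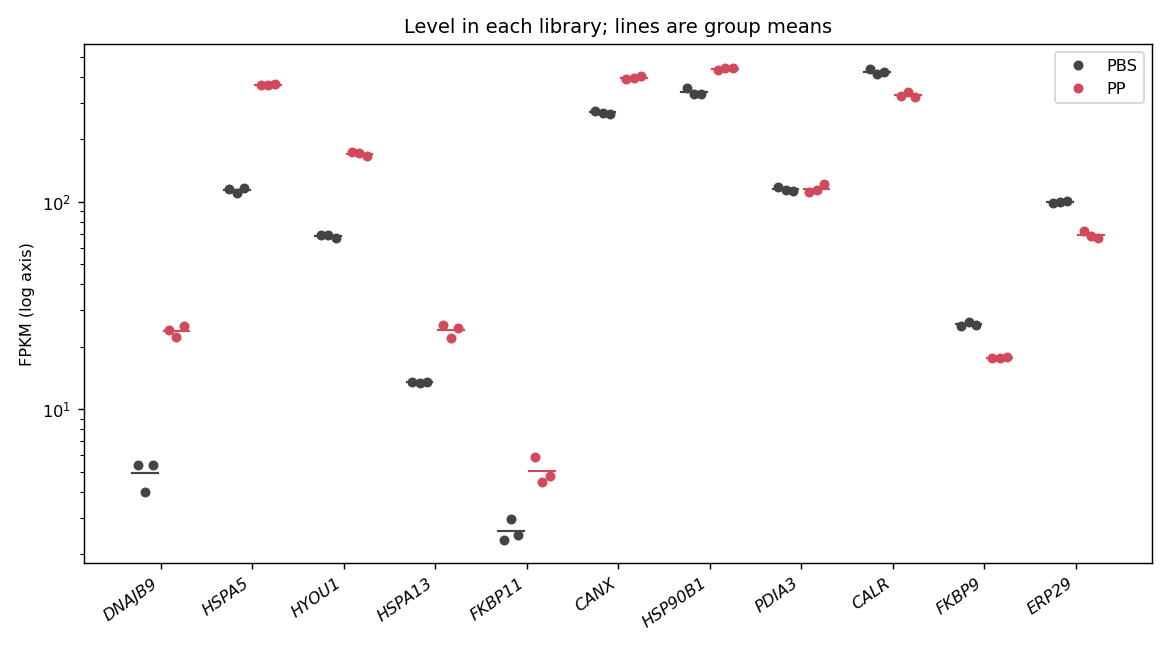
FPKM (vertical log axis) of 11 folding genes in each PBS library (dark points) and PP library (red points), with lines for group means. The replicates of *HSPA5*, at 110.6 to 115.7 FPKM in PBS and 364.1 to 368.8 FPKM in PP, lie close together, the groups of *CALR* and *CANX* change places, and those of *PDIA3* overlap.

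Within the soluble protein disulfide isomerase family, 6 of 9 genes rose, 1 fell and 2 did not pass the test, with a median log2 fold change of 0.23. *TXNDC5*, an isomerase with several thioredoxin domains, rose the most of them, from 45.5, 46.0 and 46.2 FPKM to 75.4, 73.6 and 73.6 FPKM (log2 fold change 0.68, SE 0.032, limma adjusted p = 3.436e-08). By annotation, 60.9% of its exonic bases also belong to a read-through transcript with the neighbouring *BLOC1S5*, so its value may hold reads of both. *PDIA5* rose from 10.2 ± 0.303 to 14.6 ± 0.444 FPKM, a log2 fold change of 0.48. *TXNDC12*, a small thioredoxin-like oxidoreductase, rose from 77.5 ± 3.40 to 101.4 ± 3.40 FPKM (log2 fold change 0.39), with 64.6% of its exonic bases shared with other annotated genes of its strand. *ERP44*, which retains ERO1 and other clients that lack a retrieval signal, rose from 23.7 ± 0.567 to 30.5 ± 0.588 FPKM, a log2 fold change of 0.35. *P4HB*, the archetypal isomerase and a subunit of the collagen prolyl 4-hydroxylase, was abundant at 214.6 ± 2.46 FPKM and rose to 252.1 ± 3.27 FPKM (log2 fold change 0.23). *PDIA4* was at 37.6, 33.5 and 36.8 FPKM in PBS and 38.5, 39.7 and 40.8 FPKM in PP, close but without overlap. Its log2 fold change of 0.14 passed at a limma adjusted p of 0.0245 and was lost without PBS replicate 2, PP replicate 2 or PP replicate 3, with adjusted p of 0.1097, 0.06089 and 0.07415.

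*PDIA3*, the isomerase that works with calnexin and calreticulin, did not pass the test, at 117.6, 113.4 and 112.6 FPKM in PBS and 111.3, 113.3 and 121.0 FPKM in PP. The groups overlapped fully, and the log2 fold change was 0.0082 with a 95% interval from -0.079 to 0.095. *PDIA6*, which also acts on the sensors of the unfolded protein response, was at 95.9 ± 2.78 and 101.1 ± 2.39 FPKM. Its log2 fold change of 0.076 did not pass (limma adjusted p = 0.07573), and its promoter holds an exact ERSE. *ERP29*, a family member without the catalytic cysteine pair, had the lowest log2 fold change of the 40 genes. It was at 98.9, 99.7 and 100.9 FPKM in PBS and at 71.9, 68.4 and 66.6 FPKM in PP, with every PP library well below every PBS library (log2 fold change -0.53, SE 0.036, limma adjusted p = 5.165e-07).

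In the membrane-bound thioredoxin family, 2 of 4 genes were higher and 1 was lower, where 38.1% of all genes tested were higher and 34.4% lower. *TXNDC11*, known as a partner in the maturation of dual oxidases, rose from 15.8 ± 0.233 to 24.2 ± 1.08 FPKM, a log2 fold change of 0.58. *TMX1*, an oxidoreductase that prefers membrane-bound clients, fell from 20.9, 21.7 and 22.8 FPKM to 17.4, 15.8 and 17.5 FPKM (log2 fold change -0.35, SE 0.052, limma adjusted p = 0.0001483). *TMX4*, its close relative, was at 21.5, 22.9 and 20.8 FPKM in PBS and 23.3, 24.2 and 24.98 FPKM in PP, a log2 fold change of 0.15 at an adjusted p of 0.01705 by limma. Without PBS replicate 3 or PP replicate 3 the adjusted p of *TMX4* was 0.07314 and 0.05602. *TMX3* stayed near 14.4 FPKM in both groups, with a log2 fold change of 0.0048 and a 95% interval from -0.092 to 0.10.

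Both ER oxidases, which pass electrons from the isomerases to oxygen, rose. *ERO1A*, the broadly expressed form, went from 28.7, 26.7 and 26.0 FPKM to 30.0, 31.5 and 32.5 FPKM, a log2 fold change of 0.20 (SE 0.048, limma adjusted p = 0.003422). *ERO1B*, the form typical of secretory cells, was the scarcer of them, at 2.88, 3.39 and 2.93 FPKM in PBS and 4.47, 3.94 and 4.40 FPKM in PP, a log2 fold change of 0.37 (SE 0.071, limma adjusted p = 0.0007579). Neither pair of groups overlapped.

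Of the SDF2, MANF and CRELD proteins, 2 rose, 1 fell and 2 did not pass. The shares over all genes tested are 38.1% higher and 34.4% lower. *MANF*, a small cofactor of BiP that can be secreted, rose from 75.0 ± 2.64 to 92.9 ± 5.36 FPKM, a log2 fold change of 0.31. *SDF2L1*, the stress-inducible partner of DNAJB11, was at 8.57, 12.2 and 9.43 FPKM in PBS and at 14.8, 12.5 and 11.8 FPKM in PP, from 219 to 375 counts per library. The highest PBS library stood above the lowest PP library, so the groups overlapped, and the log2 fold change of 0.35 (SE 0.11, limma adjusted p = 0.0179) was lost without PBS replicate 1, PBS replicate 3 or PP replicate 1, with adjusted p of 0.06802, 0.05304 and 0.06545. Its constitutive relative *SDF2* fell from 31.5, 30.3 and 33.1 FPKM to 26.4, 24.3 and 22.7 FPKM, without overlap (log2 fold change -0.36, SE 0.057, limma adjusted p = 0.0002181). *CRELD2*, known as an ER stress gene and a holder of an exact ERSE, was not called in either direction. It was at 11.6, 12.1 and 10.1 FPKM in PBS and at 10.4, 10.3 and 10.3 FPKM in PP (log2 fold change -0.11, 95% interval -0.25 to 0.030), and without PBS replicate 3 it was called lower, at -0.18 (limma adjusted p = 0.01446). *CRELD1*, its membrane-bound relative, was at 12.8 ± 0.886 and 12.7 ± 0.821 FPKM, a log2 fold change of -0.0066 with a 95% interval from -0.14 to 0.13. A share of 22.5% of the exonic bases of *CRELD1* is annotated to another gene as well.

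Prolyl isomerases, which speed the turning of proline bonds during folding, went in both directions. Of the 5 tested, 2 rose and 1 fell, where 38.1% of all genes tested were higher and 34.4% lower. *PPIB*, the abundant cyclophilin of the ER, rose from 162.7 ± 4.75 to 209.4 ± 2.65 FPKM, a log2 fold change of 0.36. *FKBP11*, a membrane-anchored form typical of secretory tissue, rose from 2.35, 2.96 and 2.47 FPKM to 5.85, 4.47 and 4.78 FPKM, from 101 to 120 and from 187 to 249 counts per library. Its means differed by 1.94-fold without overlap, and the log2 fold change of 0.74 (SE 0.094, limma adjusted p = 4.572e-05) was smaller than log2 of that ratio because of the pseudocount of 1. *FKBP9* fell from 25.1, 26.4 and 25.6 FPKM to 17.7, 17.6 and 17.8 FPKM, with tight replicates and no overlap (log2 fold change -0.51, SE 0.039, limma adjusted p = 1.133e-06). *FKBP14*, which acts on collagen, was at 3.93 ± 0.106 and 4.05 ± 0.118 FPKM, and *FKBP7* was at 1.31 ± 0.0927 and 1.18 ± 0.0894 FPKM. Neither passed the test, at log2 fold changes of 0.036 and -0.083. The ER selenoprotein *SELENOF*, which binds the UGGT enzymes, rose from 72.9 ± 1.92 to 82.4 ± 3.45 FPKM, a log2 fold change of 0.17 (limma adjusted p = 0.002538).

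The 3 genes below the filter were scarcely detected. *FKBP10*, a collagen chaperone, was at 0.811, 0.680 and 0.567 FPKM in PBS and at 0.613, 0.379 and 0.383 FPKM in PP, from 31 to 68 counts per library. The groups overlapped, and with the filter lowered to 0.1 FPKM its log2 fold change was -0.21 (limma adjusted p = 0.05099). *SELENOM* had 0 to 6 counts and *FKBP2* had 0 to 4 counts in a library, and with so few counts no difference was detectable. By annotation 71.0% of the exonic bases of *FKBP2* also belong to another gene of the same strand, so its own level may not be known from this table, while *FKBP10* and *SELENOM* share none.

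Summed over all 43 genes, the folding machinery came to 2695.2, 2628.2 and 2624.0 FPKM in PBS and 3355.3, 3392.4 and 3399.9 FPKM in PP. The groups were well apart, and the sum took 0.831% of all FPKM in PBS and 1.10% in PP. *HSPA5* contributed a large part of the added level, and without it the sum was still higher under PP, at a mean of 2536 ± 39.5 FPKM in PBS and 3016 ± 23.3 FPKM in PP. The composition shifted with it. *HSPA5* made up 4.29% of the summed level in PBS and 10.8% in PP, while *CALR* went from 16.0% to 9.65%. *HSP90B1* held nearly the same share, 12.7% and 12.9%, and became the most abundant folding gene in PP, followed by *CANX* and *HSPA5*. *HSPA5* had been in place 7 of 43 in PBS, and *HYOU1* moved from place 14 to 7, *DNAJB9* from 36 to 24 and *ERP29* from 9 to 15. *HSP90B1* and *CALR*, at the top of the PBS order, differed beyond their spread, with 329.3 to 351.7 and 411.4 to 434.4 FPKM. *CANX* and *HSPA5*, neighbours in the PP order, also kept apart, with 390.3 to 402.4 and 364.1 to 368.8 FPKM.

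**Figure D3:**
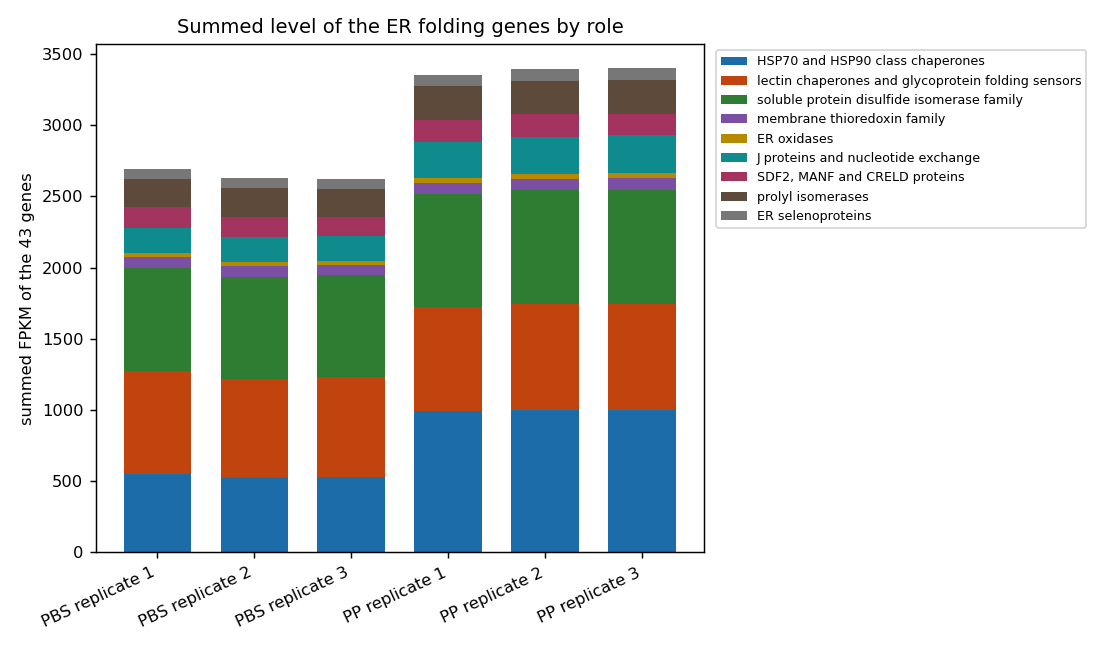
Summed FPKM of the 43 folding genes in each library (vertical axis, from 0), with colours for the roles. The PBS libraries reach 2624.0 to 2695.2 FPKM and the PP libraries 3355.3 to 3399.9 FPKM, and the HSP70 and HSP90 segment at the bottom grows from at most 548.4 FPKM in PBS to at least 992.6 FPKM in PP.

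Related genes were then set against each other in 10 pairs, as the difference of their log2(FPKM + 1) values within each library. With 3 libraries against 3, the two-sided exact permutation test cannot give a p below 0.1, and the smallest value adjusted over the 10 pairs was 0.143, so no pair could pass a threshold of 0.05. The ratio of *CALR* to *CANX* was 0.66, 0.62 and 0.67 in PBS and -0.27, -0.22 and -0.33 in PP, which means that calreticulin transcripts were in excess in every PBS library and calnexin transcripts in every PP library, a change of -0.92. For *HSPA5* over *HSPA13* the log2 ratio moved by 0.90, from 2.98 ± 0.020 to 3.88 ± 0.10. The inducible *SDF2L1* gained on *SDF2*, from -1.76, -1.24 and -1.71 to -0.79, -0.91 and -0.88, a change of 0.71. *TMX4* and *TMX1* were about equally abundant in PBS, at a mean log2 ratio of -0.0045, and stood at 0.49 in PP.

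In 3 of the remaining 6 pairs the groups did not overlap either. *UGGT1* lost slightly on *UGGT2*, by -0.14, and the ratios of *FKBP10* to *FKBP9* and of *SELENOM* to *SELENOF* moved by 0.30 and -0.27. The last 2 ratios contain a gene below the filter and depend on the pseudocount, since at 0.1 they moved by 0.028 and -0.68. For *ERO1B* over *ERO1A* the change was 0.17 (exact permutation p = 0.2), for *FKBP14* over *FKBP7* 0.12 (exact permutation p = 0.3), and for *CRELD2* over *CRELD1* -0.10 (exact permutation p = 0.4), each with overlapping groups. In all, 7 of 10 pairs had separate groups, 2 of them with a gene below the filter. Single genes often differed too, with 38.1% of all genes tested higher and 34.4% lower at an adjusted p under 0.05. Those shares count calls, which is another measure than separate groups. How often the groups separate for other pairs or for single genes was not tested, so the count of 7 has no background here.

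**Figure D4:**
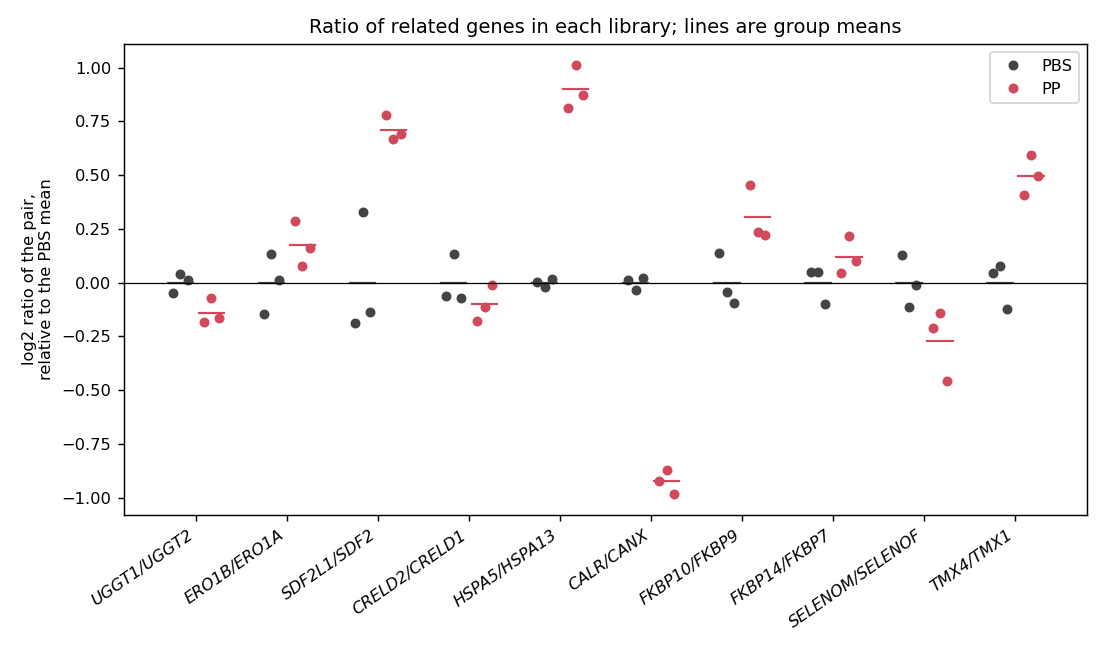
Log2 ratio of 10 pairs of related folding genes in each library, drawn relative to the PBS mean of the pair (vertical axis), with dark points for PBS, red points for PP and lines for group means. The pair of *CALR* and *CANX* drops by 0.92 and the pair of *HSPA5* and *HSPA13* climbs by 0.90, while the groups of *ERO1B* and *ERO1A*, *FKBP14* and *FKBP7*, and *CRELD2* and *CRELD1* overlap.

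Set beside the promoter elements, the 7 genes with an exact ERSE had log2 fold changes from -0.37 (*CALR*) to 1.68 (*HSPA5*) with a median of 0.37, and 4 of them rose and 1 fell. The 30 tested folding genes whose matched promoter lacks it had a median of 0.22, with 20 higher and 4 lower, and *DNAJB9*, the gene with the highest log2 fold change, is among these. Over the whole table, 14 tested genes hold an exact ERSE, and the 7 folding genes are among them. Of the 14 genes, 10 were higher and 1 was lower, with a median of 0.47. Among all genes tested, 38.1% were higher and 34.4% were lower. The promoter just upstream of the start of *HSPA5* is shown with its ERSE in capitals, on the strand of the gene, since this gene added more FPKM than any other in the set:
HSPA5, chr9:125241344-125241493, GRCh38.p14, minus strand: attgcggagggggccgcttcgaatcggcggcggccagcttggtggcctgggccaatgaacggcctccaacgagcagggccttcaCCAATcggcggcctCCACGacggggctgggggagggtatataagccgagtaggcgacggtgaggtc

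Other folding genes of the ER were taken from a separate list of 34. Of the 28 that were tested 7 rose and 16 fell, with a median log2 fold change of -0.17. For this list and the collagen list below, the shares over all genes tested are 38.1% higher and 34.4% lower. *CLGN*, the calmegin gene and a relative of *CANX*, rose from 22.3 ± 0.758 to 64.1 ± 5.15 FPKM (log2 fold change 1.48), and *SEC63*, the J protein of the translocon, rose from 37.6 ± 1.75 to 59.6 ± 2.08 FPKM (0.65 on the same scale). *CNPY4* fell from 11.4 ± 1.95 to 5.56 ± 0.384 FPKM, a log2 fold change of -0.91. The enzymes that fold and modify collagen went mostly down, with 9 of 12 tested lower, 2 higher and a median of -0.43. *PLOD1*, a lysyl hydroxylase, fell from 88.9 ± 0.728 to 45.9 ± 0.973 FPKM (log2 fold change -0.94), and the prolyl 4-hydroxylase subunits *P4HA2* and *P4HA3* moved apart, by 1.02 and -0.91.

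Regulators of the unfolded protein response had the highest median of the lists, 1.18, with 11 of 14 tested higher, 2 lower and 8 past the stricter rule upward. By the same rules, 38.1% of all genes tested were higher, 34.4% were lower and 2.24% passed the stricter rule upward. *TRIB3*, a pseudokinase induced by ATF4 and CHOP, rose from 19.2 ± 0.545 to 171.1 ± 8.24 FPKM (log2 fold change 3.09), the highest value of all genes tested. *PPP1R15A*, which directs the dephosphorylation of eIF2α, rose by 2.53, and *ERN1*, which encodes the sensor IRE1, by 2.23 on the log2 scale. The chaperones of other compartments are given for comparison, and no difference between lists was tested. Of 30 tested cytosolic chaperones 12 rose and 10 fell, with a median of -0.0095, close to the background of 38.1% higher and 34.4% lower among all genes tested. The 3 named members fell, *PPIA* by a log2 fold change of -0.70, *HSPA8* of -0.48 and *HSP90AA1* of -0.44. Without PBS replicate 2, 7 cytosolic genes were called higher. Of 12 mitochondrial chaperones and proteases 8 rose and 2 fell, with a median of 0.52, led by *DNAJA3* at 0.92, *LONP1* at 0.85 and *HSPA9*, the mitochondrial HSP70, at 0.80. Without PBS replicate 2 or PP replicate 3, 1 mitochondrial gene was called lower.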

How the data were processed

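RNA was extracted with TRIzol, and the labels name a stranded mRNA kit and paired-end reads of 150 bases. The deposited table holds the FPKM of 17177 genes by symbol, made by the authors. The submitters' processing notes name fastp, HISAT2, HTSeq and GRCh38, whereas the methods name hg19, Bowtie, RSEM, Cufflinks and HTSeq, and which of these made the table is not stated, so whether strand was used in counting is not known. The methods also give duplicates where the labels and a legend give 3 samples, and all 6 labelled libraries were used.

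FPKM values were turned back into counts: for every gene a whole length (154 to 116919 bases) gave counts within 0.01 of a whole number in 100% of values. The totals behind the FPKM were 29320121 to 32773468 per library. Replicates differed by more than sampling noise (chi-square per degree of freedom 3.39 to 7.10), so none was counted as a duplicate.

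Genes with a mean of at least 1 FPKM were fitted on log2(FPKM + 1) with limma 3.58.1 in R 4.3.3 (lmFit, eBayes with trend), with Benjamini-Hochberg adjustment over all 11726 genes. A fold change on this scale understates that of low genes. The stricter rule is the one stated in the methods of the study. Pairs were compared by exact permutation over libraries (scipy 1.17.1). Promoters came from RefSeq on GRCh38.p14, and shared exons from GENCODE on GRCh37, where 5 of 43 genes share over 10% of their exonic bases, *PDIA5* with 12.0% among them. The steps were tested on simulated data.

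The folding genes and the other lists were chosen with earlier results of these data known. Every folding gene is named, and of each other list the 3 genes with the largest absolute log2 fold change among those with an adjusted p under 0.05. *CHGA*, *SCG2*, *INSM1*, *PTPRC*, *CD68*, *CD14*, *COL1A1* and *COL1A2* were named after their values were seen. The results for 2 marker genes are not reported here. Alternatives were a pseudocount of 0.1 or 0.5, a filter of 0.1 or 5 FPKM, median-ratio size factors, eBayes without trend, limma-voom on the recovered counts, a replicate block and each library left out. Reads and protein sequences were not analysed here.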

Additional observations from a re-analysis of the deposited data

How the results depend on the processing

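Between 22 and 27 folding genes were called higher and 5 or 6 lower under the alternatives run, and 3 passed the stricter rule upward and 0 downward in each. Their median log2 fold change was 0.187 with the filter at 0.1 FPKM, 0.201 with median-ratio size factors and 0.208 to 0.231 with a library left out. Over all genes, limma-voom on the recovered counts put 397 genes higher and 559 lower past the stricter rule, and a pseudocount of 0.1 put 531 lower, against 263 and 344. With a library left out, 7 to 12 cytosolic chaperones were higher and 1 to 2 mitochondrial ones lower, and 1 mitochondrial gene was lower without the eBayes trend. Of 556 values of single folding genes under an alternative, 533 kept their direction and their side of the threshold, 12 lost the call and 3 gained it (*PDIA6* and *DNAJC10* under limma-voom, *CRELD2* without PBS replicate 3). The 8 values that changed sign belong to genes not called by any of these fits. With a library left out, the log2 fold change ran from -0.0092 to 0.040 for *UGGT1*, from -0.027 to 0.032 for *PDIA3*, from -0.019 to 0.0265 for *TMX3* and from -0.048 to 0.045 for *CRELD1*, and with median-ratio size factors it was -0.0063 for *PDIA3* and -0.0089 for *TMX3*. The deviations of same-numbered libraries correlated at -0.21, -0.014 and -0.13, which gave no sign of pairing by replicate number. Whether same-numbered libraries were handled together is not known. With a replicate block, 25 folding genes were higher and 5 lower, 4260 and 3878 of all genes were called, and 1 mitochondrial gene was lower. The causes of these shifts were not tested. Low counts limit *FKBP2*, *SELENOM* and *FKBP10*, shared exons also limit *FKBP2*, and 3 libraries a group limit all small differences.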
